A study of Tripsacum dactyloides with 133 samples.

Results

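The 200 genes described here are the most abundant transcripts of eastern gamagrass (Tripsacum dactyloides) crown roots for which the orthologue table lists no maize gene. Of the 45865 genes in the count table, 13080 had no entry in the orthologue table and 32785 had one. The members were chosen on their level alone: they are the 200 of those 13080 genes with the highest median CPM (a gene's count divided by the total count of its library and scaled to 1000000 counts). The median was taken over the 124 live libraries with 5 M or more total counts (M, 1000000 counts), so the levels below are a description and not a result of a test. No value of the drought comparison entered the choice.

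The study asked how microbiota from dry and wet prairies alter the response of a host plant to drought. Every plant was of the genotype Pete, and each library held the poly(A) RNA of the crown roots of 1 plant grown in a pot of its own, with 125 live libraries and 8 mock libraries in all. Live inocula came from the Kansas prairie sites CWR and WEL, which the study assigns to a high-precipitation legacy, and SVR and TRI, which it assigns to a low-precipitation legacy. Before use, the inocula had been conditioned under a drought_stressed or a well_watered regime, and with gamagrass or with no_host, and the plants that received them were then grown under Drought or kept Well_watered. CWR, SVR and TRI contributed 16 drought and 16 well-watered plants each, WEL 15 and 14, and the mock inoculum 4 and 4. Plants that received inoculum of the same conditioning pot share it, and the labels do not say which plants those are, so the p-values treat the plants as independent.

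Total counts ranged from 13.6 to 64.2 M in live drought libraries (median 52.8 M) and from 1.14 to 69.4 M in live well-watered libraries (median 26.1 M). All droughted plants had lower plant numbers than all watered plants, so that anything that followed the numbering cannot be told apart from the water treatment. A mock well-watered library held 0.00605 M counts and was left out of the comparisons that use the mock plants, except where stated. Neither table pairs identifiers with names, so the root label was not checked against marker genes, and no function is assigned to any gene below.

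Orthologues are genes of different species that descend from a single gene of their common ancestor. Eastern gamagrass is a perennial relative of maize, and most of its genes have a recognisable counterpart there. Genes without an assigned counterpart can be lineage-specific, fast evolving, lost from the other genome, or annotated differently in the 2 genomes. Crown roots are the roots that emerge from the base of the shoot of a grass, and they carry much of its water uptake.

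Genes without an orthologue were less frequent among abundant transcripts than in the table as a whole. Ranked by median CPM over all genes, the members lay between places 8 and 1457. Down to that last place 13.7% of the genes had no maize orthologue, against 28.5% of the whole table. Of the 13080 genes without an orthologue, 8206 had a median CPM above 0 and 4904 reached a median of 1 CPM or more. The 100 most abundant genes of the table included 8 members, and the 500 most abundant included 52.

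Td00002ba029194 (chromosome 9, 33423833 to 33427952, plus strand; coordinates are those of the gamagrass assembly Td-KS_B6_1) was the most abundant member. Its level was 424.9 CPM in the lowest, 1651 in the median and 3765 in the highest of 63 droughted live plants, and 514, 1844 and 5060 CPM in 61 watered plants. The ranges of the droughted and the watered plants overlapped almost entirely. Its log2 fold change under drought was -0.25 ± 0.11 (SE), which was not called (DESeq2 adjusted p = 0.074). Among plants with higher plant numbers it was called, at -0.55, while among those with lower numbers it was 0.06.

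The next 4 members were Td00002ba037956 on chromosome 13 with a median of 987 CPM, Td00002ba030847 on chromosome 10 with 856 CPM, Td00002ba000348 on chromosome 1 with 795 CPM and Td00002ba003741, also on chromosome 1, with 638 CPM. None of these 4 was called for drought, with DESeq2 adjusted p-values of 0.084, 0.458, 0.658 and 0.719. Within plants of higher number (the split is described with the drought comparison), Td00002ba037956 was called with a log2 fold change of -0.20. Td00002ba003741 was called in both sets with opposite signs, at 0.39 among lower and -0.49 among higher plant numbers. Td00002ba037956 was the steadiest of the 5 most abundant members. It ranged from 739 to 1416 CPM in droughted plants and from 594 to 1758 CPM in watered plants.

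At the other end, the members just inside the threshold were Td00002ba041654 with a median of 112.42 CPM and Td00002ba010878 with 112.38 CPM. The genes just outside it were Td00002ba014852 with 112.11 CPM and Td00002ba033790 with 112.07 CPM. The threshold of 200 thus fell within a continuous series of levels.

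The members together took a similar share of each library. That share was 3.43% in the lowest, 4.23% in the median and 4.79% in the highest live drought library, and 3.42%, 4.25% and 4.78% in live well-watered libraries. Between the live groups of the 4 sites, the medians ran from 4.07% in droughted plants with SVR inoculum to 4.29% in droughted plants with TRI inoculum, and the ranges of these 8 groups overlapped. The 4 mock drought libraries lay between 4.23% and 4.70%, and the 3 deep mock well-watered libraries between 3.96% and 4.35%. In bulk RNA of this kind, fewer cells of a type and less RNA per cell cannot be told apart. Among watered plants alone, the median was 4.09% with lower plant numbers, 4.32% with higher plant numbers and 4.09% in the 28 libraries with 30 M or more counts. For scale, the 13080 genes without an orthologue took a median of 15.4% of the counts, and the most abundant member alone took a median of 0.172%.

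**Figure D1:**
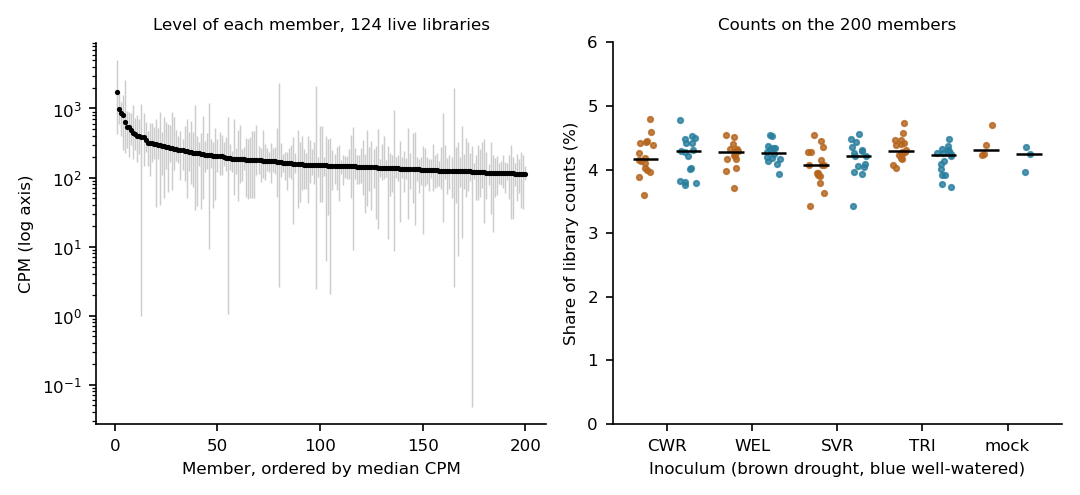
Left, median CPM of each member (black points) and its full range over 124 live libraries (grey lines), on a log axis, with members ordered by median. Right, the percentage of each library's counts that lay on the 200 members, 1 point per library with the group median as a bar; every live group sits near the median of 4.24%, from 3.42% to 4.79%.

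The members are long genes as annotated. The span from start to end, introns included, had a median of 6528 bases among members, 2951 bases among genes with an orthologue and 2149 bases among genes without one. It ran from 928 to 112101 bases, and 32 members spanned more than 20 kb. Counts were not divided by length in the rule, and of the 200 members 108 were also among the 200 highest when median CPM was divided by the span in kilobases. Members lay on all 18 chromosomes and 1 on the unplaced scaffold scaf_66. Chromosome 1 held 22 and chromosome 2 held 21, whereas per 1000 annotated genes chromosome 14 (8.12) and chromosome 16 (8) held the most and scaffold scaf_66 (2.28) the fewest.

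Neighbouring members were uncommon. With at most 5 other genes allowed between them, 24 members formed 12 runs of 2, and there was no longer run. In 3 of those runs, the members overlapped on opposite strands. These were Td00002ba001188 with Td00002ba001189 (median 150.6 CPM each), Td00002ba005315 with Td00002ba005317 (179.8 CPM each) and Td00002ba035996 with Td00002ba035997 (143.6 CPM each). In each of these 3 runs, the values of both genes differed by less than 1% in every live library. The kit marked the strand but the counting did not use it, so that reads from 1 gene of such a couple cannot be told apart from those of the other.

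The remaining 9 runs did not overlap, and their members' levels correlated across live libraries with r from -0.30 to 0.88 (median 0.69; log2(CPM + 1) with the mean of each water treatment removed, 124 libraries). Over the 19900 pairs that the 200 members form, the median r was 0.02 and the quartiles were -0.15 and 0.21. Libraries share depth and plant number in these correlations, and no test was made of them. In the run of Td00002ba038378 and Td00002ba038379 on chromosome 14, r was 0.60. The neighbours Td00002ba007643 and Td00002ba007644 on chromosome 2 had r = 0.84. These runs tie in length, so both were picked out after their values were seen, for having both members called for drought without an overlap.

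Overlap with other genes touched more of the list than these runs. In all, 44 members overlapped another annotated gene, 19 of them a gene with a maize orthologue and 37 a gene on the other strand. The values of 9 members were the same as those of an overlapping gene in every live library to within 1%, and for 3 of these the other gene had an orthologue. The most abundant member that overlapped a gene, Td00002ba025531 (chromosome 8, 6827574 to 6831558), lay wholly inside Td00002ba025532 on the other strand, which has an orthologue. Their medians were 386 and 450 CPM, their levels correlated with r = 0.99, and their log2 fold changes under drought were -0.13 and -0.11, neither of them called. The other, Td00002ba037360 (chromosome 13, median 312 CPM), contained the 648 bases of Td00002ba037361, whose median was 0.0926 CPM. A read that overlapped several genes was counted as a fraction. Of the members' values 25.3% were not whole numbers, against 14.1% over all genes, which include far less abundant ones. That share was 59.2% in members that overlapped a gene and 15.7% in those that did not.

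The central question for the members was whether water supply changed their level. A gene was called when its DESeq2 adjusted p (Benjamini-Hochberg over the whole table) was under 0.05, in a model over the 125 live libraries that held the water treatment of the plant together with the legacy and both kinds of conditioning of its inoculum. Of the 200 members, 68 were called (34.0%), while 22.7% of the 40814 genes tested were called. The 95% Wilson interval of the members' share, 27.8% to 40.8%, treats genes as independent, which members that overlap or share reads are not. It is no test of the members against all tested genes, which include far less abundant ones. Of these 68 members, 35 were higher in drought (17.5% of the 200), and 10.2% of all tested genes were called higher. The other 33 were lower (16.5% of the 200), and 12.5% of all tested genes were called lower. The median log2 fold change was -0.01 over the members and -0.03 over the genes tested, and the median absolute log2 fold change was 0.11 and 0.19.

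The changes were small. Called members that rose did so by a median of 0.24 on the log2 scale (0.10 to 2.07), and those that fell had a median of -0.27 (-0.73 to -0.11). In 33 of the 68 called members, the estimate lay between -0.25 and 0.25. Changes of 2-fold or more were found in 2 members (1.0%), both higher in drought, whereas 4.7% of all tested genes were called with such a change. Those 2 members may share reads, as described below for Td00002ba036545 and Td00002ba045979. edgeR's quasi-likelihood test called 68 members as well, 65 of them shared with DESeq2. limma voom called 71, and 64 members were called by all 3 tools.

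At equal abundance, the shares of members and of genes with an orthologue lay closer together than members and all tested genes. The members were put in 10 classes of 20 by median CPM, and each class was set beside every gene with an orthologue whose median CPM lay within the class, at least 74 genes. Averaged over the classes, 34.0% of members and 30.5% of genes with an orthologue were called for drought. The share higher was 17.5% against 15.7%, and the share lower 16.5% against 14.9%. The median absolute log2 fold change averaged 0.11 in both, and the median log2 fold change -0.02 and -0.01. Changes of 2-fold or more were called in 1.0% of members and 0.54% of genes with an orthologue. The members had the larger share called in 5 classes and the smaller share in the other 5. Class shares ran from 20% to 45% among members, which is 4 to 9 genes of 20, and from 23.5% to 44.6% among genes with an orthologue. No test was made of this difference, since genes are not replicates.

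Other features differed at equal level. Median spans averaged 6849 bases among members and 4777 bases among genes with an orthologue, and 22.0% against 14.2% overlapped another gene. Values that were not whole averaged 25.3% and 20.8%. Leaving out overlapping genes on both sides gave 36.4% and 30.6% called, and 15.8% and 15.5% of values not whole. The spread between plants of the same water treatment was alike: the median SD of log2(CPM + 1) averaged 0.35 among members and 0.37 among genes with an orthologue.

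**Figure D2:**
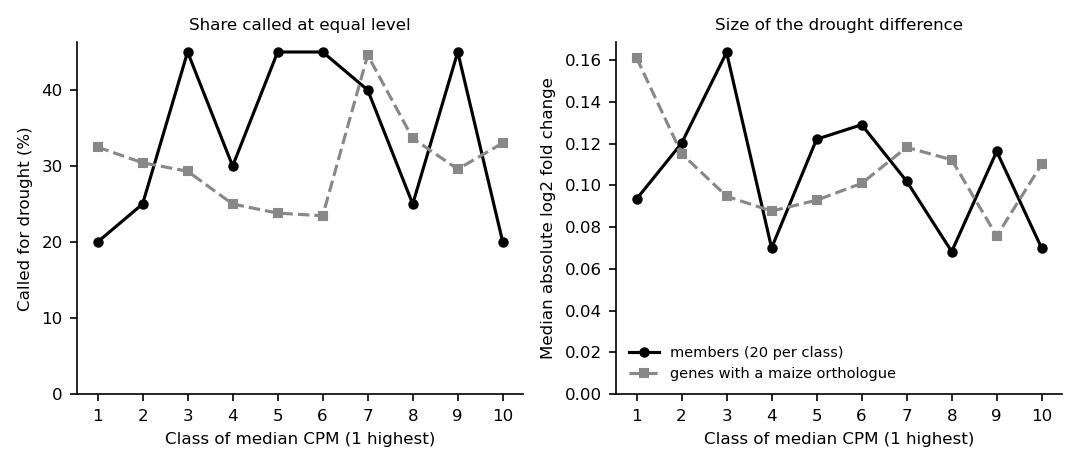
Members (black circles, 20 per class) and genes with a maize orthologue of the same median CPM (grey squares), in 10 classes from the highest level (1) to the lowest (10). Left, percentage called for drought (DESeq2 adjusted p under 0.05); right, median absolute log2 fold change. The lines cross several times, and members have the larger share called in 5 of the 10 classes.

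Among members called with the same sign at all 4 sites, the largest rise was that of Td00002ba036545 (chromosome 13, 9712503 to 9713430, plus strand, 928 bases). Its level was 23.9 CPM in the lowest, 314.1 in the median and 2118 in the highest droughted plant, and 2.41, 48.2 and 1114 CPM in watered plants. Droughted plants were higher by median at every site, although the ranges overlapped. The log2 fold change was 2.07 ± 0.30 (SE; DESeq2 adjusted p = 3.76e-10; edgeR adjusted p = 1.57e-06).

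By site, its log2 fold change was 2.74 ± 0.58 with CWR, 1.17 ± 0.61 with WEL, 1.53 ± 0.58 with SVR and 2.83 ± 0.58 with TRI inocula. DESeq2 called CWR (adjusted p = 0.000314) and TRI (0.000348), but not WEL (0.358) or SVR (0.125). The difference between legacies, 0.21 ± 0.59 on the log2 scale for low minus high, was not called (DESeq2 adjusted p = 1.0). In mock plants the levels of Td00002ba036545 were 483.9, 20.2, 1542 and 287 CPM under drought, and 669, 87.0 and 111 CPM in the 3 deep well-watered libraries, so the mock groups overlapped too.

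The other large rise was that of Td00002ba045979 (scaffold scaf_66, 14940759 to 14941889, minus strand, 1131 bases). Its level was 28.2, 343 and 2309 CPM in the lowest, median and highest droughted plant and 2.60, 52.0 and 1186 CPM in watered plants. The log2 fold change was 2.06 ± 0.30 (DESeq2 adjusted p = 4.35e-10). It followed Td00002ba036545 from plant to plant: r was 0.999 over 124 live libraries, and the ratio of their CPM had a median of 1.09 with an SD of 0.0555 (0.887 to 1.26).

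The surroundings of these genes mirrored each other. On chromosome 13, genes without an orthologue began 94461 and 217623 bases before the start of Td00002ba036545, and a gene of 1353 bases began 76366 bases after it. Around Td00002ba045979 the order was turned round, where a gene of 1353 bases began 76613 bases before its start and genes without an orthologue, of the same 2 lengths as on chromosome 13, began 95249 and 218546 bases after it. The next gene beyond the 1353-base gene had an orthologue on both sides, Td00002ba036547 with a median of 11.1 CPM and Td00002ba045977 with 10.9 CPM. Their log2 fold changes under drought were -0.75 and -0.77, opposite to those of the members. A read with several alignments was counted at its primary alignment, so reads of near-identical copies could be split between them. The sequences were not compared here, so these members are given as a single uncertain signal rather than as separate rises.

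The largest falls under the same rule were smaller. Td00002ba038378 (chromosome 14, 16552310 to 16555670, plus strand) stood at 8.89, 91.9 and 446.01 CPM in the lowest, median and highest droughted plant. In watered plants these levels were 10.3, 166 and 536 CPM, so the ranges nearly coincided while the medians differed. The log2 fold change was -0.73 ± 0.19 (DESeq2 adjusted p = 0.00145; edgeR adjusted p = 0.00354). Its neighbour Td00002ba038379, 63433 bases away on the other strand, had a log2 fold change of -0.55 (DESeq2 adjusted p = 0.00258).

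Td00002ba007644 (chromosome 2, 112802377 to 112828383, minus strand) stood at 22.3, 112 and 224 CPM in droughted plants and 23.3, 167 and 363.1 CPM in watered plants. The watered plants reached higher, but low values occurred in both groups. The log2 fold change was -0.65 ± 0.14 (DESeq2 adjusted p = 0.000127). With watered libraries of 30 M or more counts alone it was -0.13 and was not called. In mock plants its level was 161, 164, 115 and 169 CPM under drought and 50.5, 195.1 and 388.4 CPM in the deep well-watered libraries, so the mock groups overlapped. Td00002ba007643, 18690 bases away on the same strand, had a log2 fold change of -0.51 (DESeq2 adjusted p = 0.000118). Some counts of both genes were not whole, such as 7870.67 for Td00002ba007644 and 10138.7 for Td00002ba007643 in the same mock drought plant. Whether these genes share reads was not tested.

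**Figure D3:**
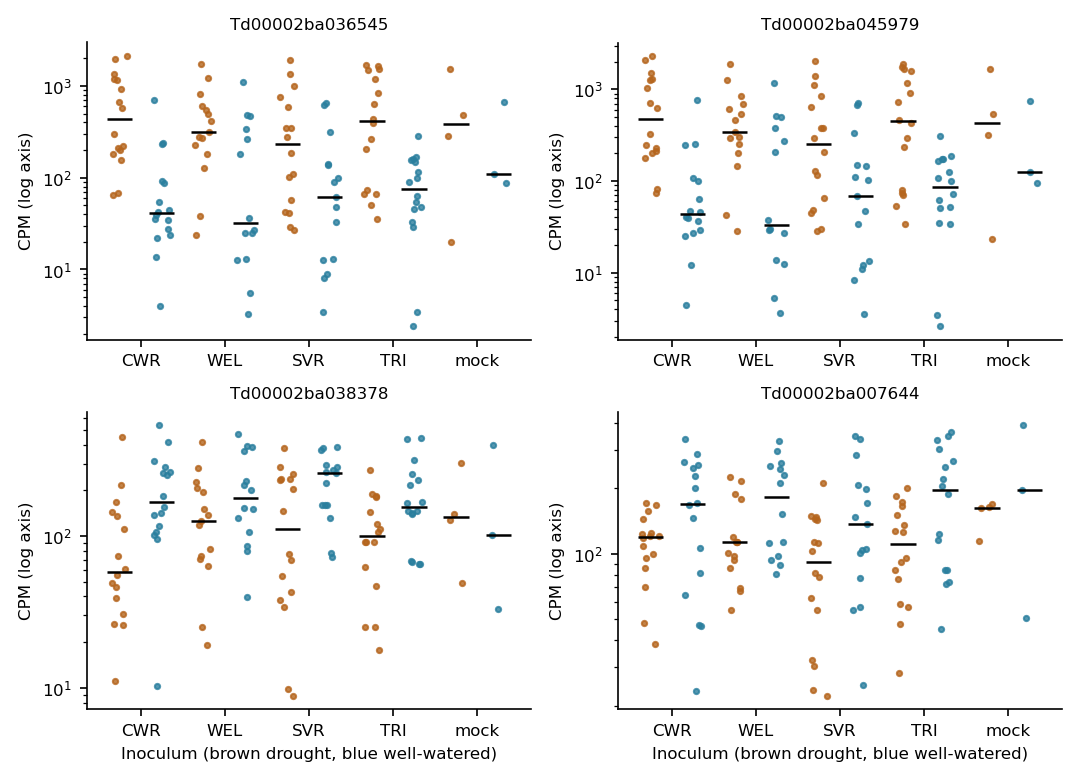
CPM (log axis) of the 2 members that rose most and the 2 that fell most among those with 1 sign at all 4 sites, 1 point per live library by inoculum and water treatment, and the mock libraries with 5 M or more counts. Bars are medians. Droughted plants have the higher median of Td00002ba036545 and Td00002ba045979 with every live inoculum, and the lower median of Td00002ba038378 and Td00002ba007644.

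All 68 called members had estimates of the same sign at the 4 sites, as did 105 of the 200 members. Since the sites make up the pooled estimate, this is no independent support for a call. With the smaller numbers of plants per site, DESeq2 called 15 members with CWR inocula (7.5%, against 6.92% of all tested genes), 5 with WEL (2.5%, against 3.12%), 6 with SVR (3.0%, against 3.51%) and 7 with TRI (3.5%, against 2.86%). These shares lie close to the background at each site. The 7 members called with TRI inocula were all higher in drought, while CWR gave 8 higher and 7 lower. Td00002ba036545 and Td00002ba045979, given above as a single uncertain signal, were among the rises at both of these sites. Directions were not counted over all tested genes at each site. In total, 23 members were called at 1 site or more, 22 of which were also called over the 4 sites together. Neither such calls, at 1 or at several sites, nor shared signs were counted over all tested genes. These counts therefore have no background beside them.

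Besides the rises on chromosome 13 and scaf_66, 4 members were called at 2 sites, 2 at 3 sites and none at 4. Td00002ba041610 on chromosome 16 was called at 3, with log2 fold changes of 0.99 with CWR, 0.61 with SVR and 0.53 with TRI inocula (DESeq2 adjusted p = 1.93e-07, 0.00865 and 0.0327), and 0.38 with WEL (0.221). Its level ran from 78.8 through a median of 173 to 415.5 CPM in droughted plants, and from 50.3 through 122 to 219.9 CPM in watered plants. Td00002ba022976 on chromosome 7 was called at the other 3-site combination, with -0.45 for CWR, -0.34 for WEL and -0.26 for SVR (1.26e-05, 0.00639 and 0.0459), and -0.09 for TRI (0.662). Among the members called with WEL inocula, Td00002ba043266 (1.07) and Td00002ba010423 (0.85) had the largest rises.

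Plant number bore on these values. Live plants were split at the median number within each water treatment, and the same model was fitted to the lower and to the higher numbers. DESeq2 called 52 members among lower-numbered plants (26.0%, against 14.7% of all tested genes) and 76 among higher-numbered plants (38.0%, against 30.9%). The directions were split unevenly, as 36 of the 52 were higher in drought and 50 of the 76 were lower. Genes with an orthologue at equal level leaned the same way in each set. Among lower plant numbers, 15.8% of them were called higher and 8.02% lower. Among higher plant numbers, these shares were 17.5% and 25.9%, so the lean was not particular to the members. In both sets, 16 members (8.0%, against 3.75% of tested genes) were called with the same direction. A further 8 (4.0%, against 2.67%) were called in both with opposite directions.

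Of the 8 members with opposite directions, Td00002ba005612 on chromosome 2 had a log2 fold change of 1.27 among lower-numbered and -0.87 among higher-numbered plants. For Td00002ba038541 on chromosome 14 these values were 0.81 and -1.09. Both were picked out after their values were seen. None of the 8 was called over all live libraries, but 11 of the 68 members that were had estimates of opposite sign in the sets of lower and higher plant numbers. Such opposite signs were not counted over all tested genes. Td00002ba036545 and Td00002ba045979 rose in both sets, by 1.67 and 2.43 and by 1.62 and 2.44. Even so, levels of Td00002ba036545 tended to climb with plant number within droughted plants, and the highest lay near the end of that numbering. They ran from 23.9 to 1475 CPM in the lower set and from 37.8 to 2118 CPM in the higher set. That trend was not tested, so the rises are not shown to be free of the numbering. The 2 largest falls were found among higher-numbered plants, where Td00002ba038378 had -1.58 and Td00002ba007644 had -1.04; among lower-numbered plants they had -0.12 and -0.04, which were not called. What else the numbering stands for was not tested.

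**Figure D4:**
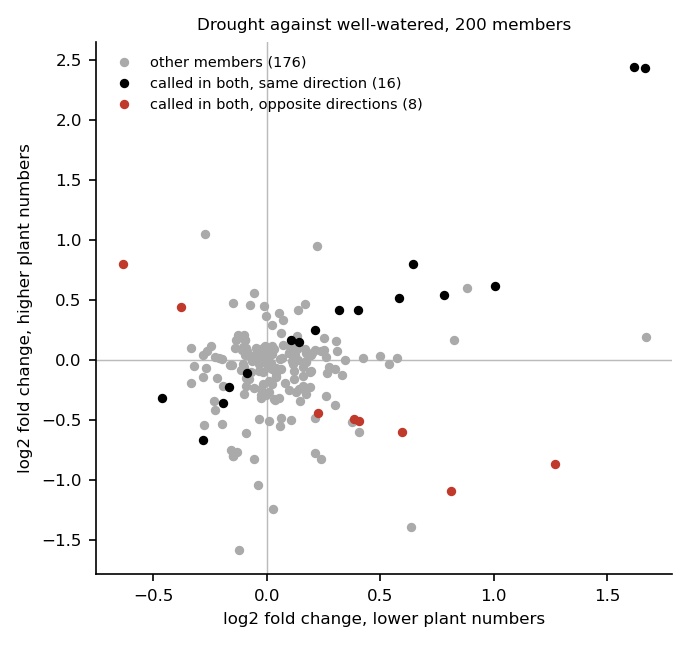
Drought log2 fold change of each of the 200 members among plants with lower (x axis) and higher (y axis) plant numbers, from separate DESeq2 fits. Black points are the 16 members called in both with the same direction and red points the 8 called in both with opposite directions; the points at the upper right are Td00002ba036545 and Td00002ba045979.

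Depth also differed between the water treatments, and among watered plants it went with plant number: of the 28 watered libraries with 30 M or more counts, 25 had lower and 3 higher plant numbers. Depth and numbering therefore cannot be told apart in the following values. When watered libraries were kept only at 30 M or more counts, 36 members were called (18.0%, against 10.8% of all tested genes), 26 higher and 10 lower. Genes with an orthologue at equal level leaned the same way, with 12.1% called higher and 4.29% lower. Both directions together, 18.0% of members and 16.4% of genes with an orthologue were then called at equal level. Within lower plant numbers these shares were 26.0% and 23.9%, and within higher plant numbers 38.0% and 43.4%, where the members had the smaller share.

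The history of the inoculum was compared in the same model. High legacy was carried by CWR and WEL alone and low legacy by SVR and TRI alone. The p-values for legacy, and for its interaction with drought, thus treat plants and not sites as replicates. Legacy (64 low against 61 high libraries), conditioning water (62 drought_stressed against 63 well_watered) and conditioning host (63 gamagrass against 62 no_host) gave no called member, with 0.0645%, 0.0429% and 0.0501% of all tested genes called by DESeq2. The smallest DESeq2 adjusted p among members was 1 for legacy, 0.904 for conditioning water and 0.741 for conditioning host. At an unadjusted p under 0.05 there were 3, 9 and 9 members (1.5%, 4.5% and 4.5%). The shares of all genes with a p-value were 3.44%, 4.29% and 4.35%. edgeR called 0 in each and put 1, 9 and 5 members under that unadjusted level, and limma voom called 0 in each. Median absolute log2 fold changes were 0.04 for each of the 3 factors.

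The response to drought by legacy was tested as an interaction. It called 0 members (0.0281% of all tested genes). An unadjusted p under 0.05 was found in 6 members (3%, against 3.18% of all genes with a p-value). edgeR and limma voom called 0 as well, with 4 members under the unadjusted level in edgeR. The smallest p was that of Td00002ba022976. Its fall under drought was smaller by 0.23 ± 0.08 on the log2 scale with low-legacy inocula, which was not called (DESeq2 adjusted p = 0.943).

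Mock plants gave the background without live inoculum. The 125 live libraries were compared with the 7 mock libraries of 5 M or more counts, with water treatment in the model. DESeq2 called 0 members (0.0403% of all tested genes) and edgeR called 0. With either tool 6 members had an unadjusted p under 0.05 (3%, against 5.08% of all genes with a p-value in DESeq2). The median log2 fold change over the members was -0.01, and single estimates ran from -0.59 to 0.57.

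The members differed widely in how much they varied between plants of 1 treatment. The SD of log2(CPM + 1) within water treatment had a median of 0.36 over the members, from 0.13 to 2.33. The SD was under 0.25 in 41 members and over 1 in 11. No member was at 0 in any of the 124 live libraries, 144 stayed above 50 CPM in every one of them, and 12 fell below 10 CPM in at least 1.

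The steadiest members were Td00002ba018811 on chromosome 5 (SD 0.13) and Td00002ba039093 on chromosome 14 (SD 0.13). Td00002ba018811 ranged from 112 to 171 CPM in droughted plants (median 137.4) and from 120 to 180 CPM in watered plants (median 153). The log2 fold change was -0.11 ± 0.02 (DESeq2 adjusted p = 0.000138). For Td00002ba039093 it was -0.15 ± 0.03 (DESeq2 adjusted p = 5.83e-07). In both, the ranges of droughted and watered plants overlapped widely. Td00002ba018811 was not called with watered libraries of 30 M or more counts (-0.06), nor Td00002ba039093 among lower plant numbers (-0.05).

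Td00002ba045427 (chromosome 18, 66995193 to 67001587) varied most, with an SD of 2.33. It stood at 0.0480, 123 and 285 CPM in the lowest, median and highest droughted plant and at 0.0986, 121 and 254.4 CPM in watered plants. In 17 of 124 live plants it was below 10 CPM, with 3.63 CPM as the highest of these, and the next plant stood at 11.6 CPM. Those 17 comprised 9 of 63 droughted and 8 of 61 watered plants. By group they were 5 of 16 droughted plants with SVR and 6 of 16 watered plants with TRI inocula, and 0 to 2 in each of the other groups. Its log2 fold change under drought was 0.03 ± 0.29 (DESeq2 adjusted p = 0.966).

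Td00002ba033838 (chromosome 11, SD 2.11) had no such gap. It ran from 2.65 through 214 to 1978 CPM in droughted plants and from 2.60 through 81.5 to 1010 CPM in watered plants, and 12 plants were below 10 CPM. Its log2 fold change of 0.97 ± 0.31 was called (DESeq2 adjusted p = 0.0108), but not without CWR inocula, where it was 0.84 (DESeq2 adjusted p = 0.102), nor among higher plant numbers, where it was 0.19, nor with watered libraries of 30 M or more counts, where it was 0.86. The top 5 plants held 24.1% of its counts, and the top 5 plants held 24.2% of those of Td00002ba036545, the 2 largest such shares among members; the median share was 8.12%. The third in order of SD, Td00002ba033954 (chromosome 11, picked out after its values were seen), was below 10 CPM in 8 plants, 7 of them watered. It shared none of these plants with either of the former, which shared 1 plant with each other (5.88% of the 17 and 8.33% of the 12).

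**Figure D5:**
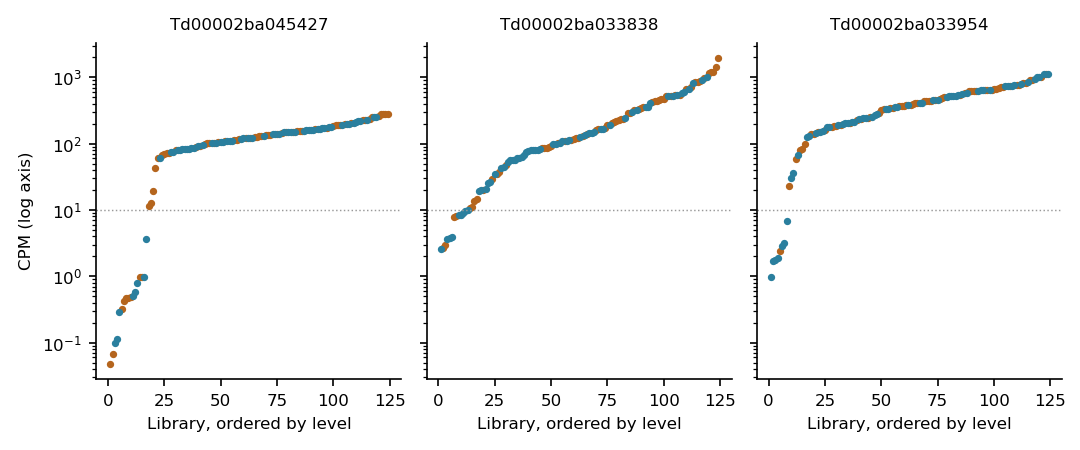
CPM (log axis) of the 3 members with the largest spread between plants, with the 124 live libraries ordered by level in each panel, droughted plants in brown and watered plants in blue; the dotted line is 10 CPM. Td00002ba045427 has 17 plants below that line and Td00002ba033954 has 8.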

How the data were processed

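Crown-root RNA-seq libraries of 125 live and 8 mock plants were analysed. According to the study's methods and the file headers, the authors trimmed reads with cutadapt, aligned them to the gamagrass genome with HISAT2, removed duplicates with SAMtools and counted with featureCounts 2.0.5. The deposited values are estimated counts (expected counts), because reads could be counted as fractions. A read that overlaps several genes was divided among them. Among members that overlap no gene, 15.7% of values were not whole either, and the source of those fractions was not traced. Mates were counted singly, multi-mapping reads at their primary alignment and without regard to strand, and a gene's length is its whole span. Orthologues are the authors' OrthoFinder assignments on coding sequences.

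Counts were rounded and tested with DESeq2 1.42.0 (Wald test, Benjamini-Hochberg over the whole table, called at an adjusted p under 0.05) in R 4.3.3. The models were additive, nested within site, or held a legacy by drought term, and a further model compared live with mock libraries. edgeR 4.0.16 (quasi-likelihood) and limma 3.58.1 (voom) were alternatives, as were other size factors, filters, library sets, sites left out and choices of members. Scripts were tested on simulated data. Levels are CPM, and libraries under 5 M counts were left out of them. Correlations used log2(CPM + 1). Precision follows depth, and the Wilson interval covers counting error only.

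Members and lists were chosen with earlier results of these data known. Genes named are the 5 most abundant, those beside the threshold, the largest called changes, runs of neighbours, the most and least variable, those with the most concentrated counts and the most abundant that overlap a gene. Others are said to have been picked out after their values were seen. All runs tied in length. Libraries are the plants of a group, and p-values measure the spread between plants, not between sites.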

Additional observations from a re-analysis of the deposited data

Results flagged for a closer look

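In groups of 4 mock drought plants, 18 levels of named members were screened for a plant far from the others, and 2 stood out, where chance gives about 1 in 20. That rate assumes independent, normally distributed levels, which was not checked. The screen used CPM without a log scale. Td00002ba007644 stood at 115 CPM in 1 plant and at 161, 164 and 169 CPM in the others. Td00002ba033838 stood at 534 CPM in 1 plant and at 60.6, 78.8 and 132.4 CPM in the others.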

How the results depend on the processing

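Of 19 alternatives for the count of 68 members called for drought, 18 stayed within 1.5 times. The exception was 36 with watered libraries of 30 M or more counts, mostly of lower plant numbers. With lists of 100 and 400 members, 33.0% and 31.8% were called, against 34.0%. At 200 members the count ran from 36 to 76, and leaving out a site gave 50 to 64. Choosing members by CPM per kilobase gave 62 called, 20 higher and 42 lower, and choosing them in watered libraries gave 27 higher and 38 lower, against 35 and 33. With SVR inocula edgeR called 2 members and DESeq2 6. At equal level the members' share exceeded that of genes with an orthologue by 3.47 percentage points. Among higher plant numbers, an alternative added after the data were seen, the difference was -5.40. The 18 alternatives for legacy, conditioning water, conditioning host and legacy by drought, and the 9 for mock plants, including each mock plant left out (0 to 0), gave 0 called members. Of 238 estimates of 17 named members under 14 alternatives, 204 kept their direction and side of the threshold, 8 lost a call and 6 gained one. The sign changed in 20, of which 19 were called in neither setting, and the other was Td00002ba003741 with 0.39 among lower plant numbers. The cause was not tested. No paired analysis was possible because the labels carry no number that links plants across water treatments. Watered libraries were shallower, which limits precision there.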

Other observations

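Some members followed each other across chromosomes. Of 19900 pairs, 41 had r of 0.8 or more, of which 6 were runs of neighbours and 33 lay on different chromosomes. The 33 include Td00002ba036545 with Td00002ba045979 on the unplaced scaffold scaf_66, given above as a single uncertain signal. Libraries share depth and plant number in these correlations, and pairs of other genes were not counted. The levels of Td00002ba000348 and Td00002ba029194 on chromosomes 1 and 9, both among the 5 most abundant, correlated with r = 0.83 over 124 live libraries. Members that overlapped a gene were called for drought in 11 of 44 cases (25%) and the rest in 57 of 156 (36.5%), and no test was made of that difference.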
